A study of Homo sapiens with 19 samples.

Results

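This section compares gene expression between 786-O cells that re-express HIF-1α and 786-O cells that overexpress HIF-2α. The comparison takes the 3 RNA-seq libraries of each pool from the raw count table, paired by their replicate numbers, which is 6 of the 19 samples of the series and 6 of its 9 RNA-seq libraries. All 23441 genes of the table were read, and the 14225 that passed a filter on low counts were tested. 786-O cells, an established line, come from a renal carcinoma of the clear cell type in which VHL is defective, so that HIF-α subunits are not degraded in the presence of oxygen. Each pool was infected with a lentivirus that carries an EGFP reporter behind an internal ribosome entry site: the control virus (pRRL) held no HIF, the second wild-type HIF-1α and the third wild-type HIF-2α. The cells are pools and not clones, the virus drives the added subunit, and all 3 pools keep their own HIF-2α and, by the study's account, only truncated HIF1A transcripts. The labels number the RNA preparations 1 to 3 and do not say that these came from separate cultures, so the p-values below measure the spread between these preparations, which may be technical. The question was which genes differ according to which HIF-α isoform the cells have in excess.

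HIF-1α and HIF-2α are transcription factors that pair with the same partner, HIF-1β, and bind hypoxia response elements with the core ACGTG or GCGTG. Oxygen lets prolyl hydroxylases modify both proteins, VHL then binds the modified form and has it broken down, and cells without working VHL keep both whatever their oxygen supply. In kidney cancer HIF-1α is known for genes of glycolysis, mitophagy and pH control and for slowing tumor growth, whereas HIF-2α is known for growth factors, cyclin D1 and lipid storage and for promoting it.

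Values are given as counts per 1000000 counts of the library (CPM, with library sizes scaled by the trimmed mean of M-values, TMM) in replicates 1, 2 and 3 of a pool, and differences as the log2 fold change of HIF-1α cells minus HIF-2α cells with its standard error (SE), so that a positive value means a higher level in HIF-1α cells. CPM is not scaled for length and is compared for 1 gene at a time. A gene was called when its adjusted p lay under 0.05 in edgeR's quasi-likelihood test over all 9 RNA-seq libraries, with the replicate number as a term. Library totals ranged from 27852754 to 54287621 counts. For HIF1A and CA9, control replicate 3 stood apart from the other control libraries. It held 152 CPM of HIF1A and 14.3 CPM of CA9, against at most 36.7 and 0.171 CPM in those libraries. All 8 markers of a renal carcinoma line were tested, among them PAX8 at 288, 325 and 175 CPM in HIF-1α cells and 219, 181 and 195 CPM in HIF-2α cells. None of 7 markers of blood, endothelial and liver cells reached the filter, and their summed level was 0.456 to 1.21 CPM in HIF-1α libraries and 0.279 to 0.602 CPM in HIF-2α libraries, with CD3E at 0 in every library.

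HIF1A, the gene of HIF-1α, was measured at 171, 1682 and 473 CPM in HIF-1α cells and at 15.3, 30.4 and 17.5 CPM in HIF-2α cells. The lowest HIF-1α library lay above the highest HIF-2α library, and the HIF-1α libraries differed among themselves by more than the other pools did. The log2 fold change was 4.79 (SE 0.74, adjusted p = 0.00887). The call was lost without the replicate number (adjusted p = 0.0614) and without HIF-2α replicate 3 (adjusted p = 0.0581). Counts of the viral cDNA and of the cells' own truncated transcripts fall on the same gene here.

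EPAS1, the gene of HIF-2α, was measured at 946, 3244 and 879.9 CPM in HIF-2α cells, 575, 627 and 397 CPM in HIF-1α cells and 456, 224 and 162 CPM in control cells. The 3 HIF-2α libraries lay above all HIF-1α libraries, and replicate 2 stood well above the others. The log2 fold change of -1.53 (SE 0.43) did not pass the threshold (adjusted p = 0.073), although it did in DESeq2 with the replicate number (adjusted p = 0.00286). HIF-1α cells also held 397 CPM or more of EPAS1, so both pools had RNA of HIF-2α. Against control cells the EPAS1 level of HIF-2α cells was not called either (HIF-2α minus control 2.48, adjusted p = 0.069 in the same test). These are levels of RNA and not of protein. The study itself reports more HIF-2α RNA, and by immunoblot more HIF-2α protein, in HIF-2α cells than in control cells. HIF1A was the only one called of the 5 tested genes of HIF subunits (median log2 fold change 0.07). ARNT, which encodes HIF-1β, had 37.1, 47.0 and 69.9 CPM in HIF-1α cells and 39.3, 51.8 and 45.4 CPM in HIF-2α cells, with overlapping libraries and a log2 fold change of 0.16 (SE 0.23, adjusted p = 0.703). VHL, whose product is defective in this line, had 89.7, 79.6 and 107 CPM and 67.9, 74.5 and 96.5 CPM (log2 fold change 0.21, SE 0.16, adjusted p = 0.426).

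**Figure D1:**
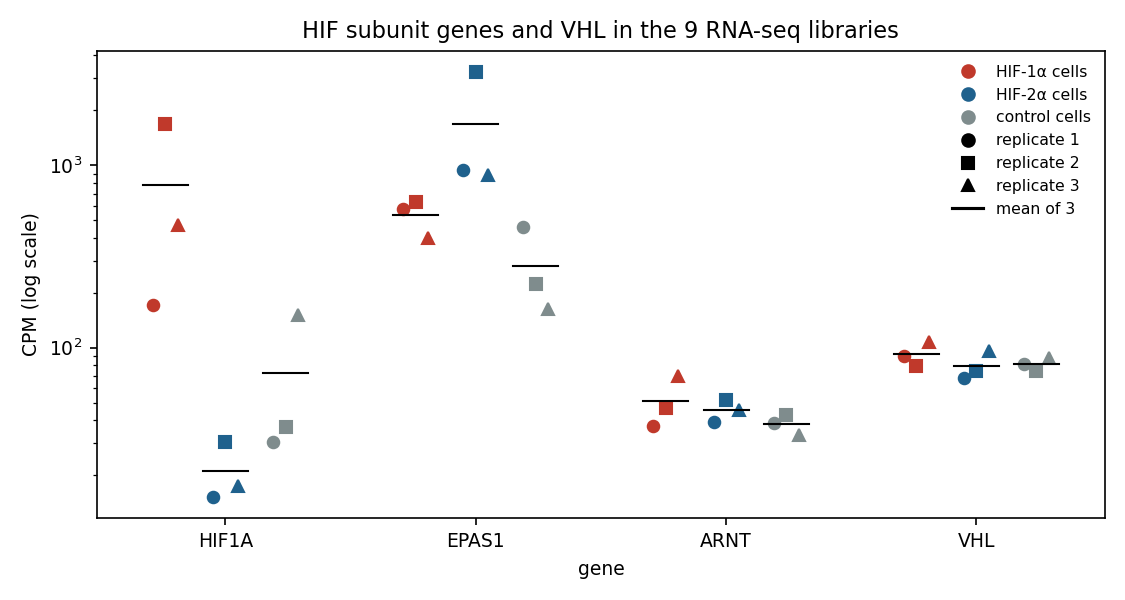
CPM (log axis) of HIF1A, EPAS1, ARNT and VHL in each of the 9 libraries, by pool (color) and replicate number (symbol), with the mean of 3 as a bar. HIF1A lies at 171 CPM or more in the HIF-1α cells and at 30.4 CPM or less in the HIF-2α cells, while the EPAS1 levels of the pools are closer.

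Of the 14225 genes tested, 646 were higher in HIF-1α cells (4.54%) and 197 were lower (1.38%), 843 in all (5.93%). The genes that were higher had a median log2 fold change of 2.08, and 599 of them differed by more than 2-fold and 337 by more than 4-fold. Those that were lower had a median of -1.21, with 128 past 2-fold and 31 past 4-fold, beside a median of 0.01 over all genes tested. The genes higher in HIF-1α cells were covered by fewer counts: their median was 11.9 CPM in HIF-1α cells and 2.5 CPM in HIF-2α cells, and 252 of them (39.0%) had a mean under 1 CPM in the lower pool. Genes lower in HIF-1α cells had medians of 22.0 and 51.5 CPM, and 31 of them (15.7%) had a mean under 1 CPM in the lower pool. The sign was the same in all 3 pairs for 643 of 646 and for 197 of 197 genes. The libraries of the pools did not overlap for 503 (77.9%) of the genes higher in HIF-1α cells and for 146 (74.1%) of those lower, against 19.2% of all genes tested. The calls were made on these same libraries, which makes a shared sign and a lack of overlap likely.

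These counts rest on the pairing and on single libraries. When the replicate number was left out of the model, edgeR called 4 genes higher (ADAMTSL3, KCNN4, MAL2 and RNF165) and 3 lower (C5orf46, GFRA2 and PTHLH), while 1286 and 655 genes had an unadjusted p under 0.05 in that fit. DESeq2 called 1162 higher and 615 lower with the replicate number and 465 and 138 without it. The counts were 143 and 24 without HIF-2α replicate 3, 268 and 56 without HIF-1α replicate 2, 281 and 121 without HIF-2α replicate 1, 395 and 86 without HIF-1α replicate 3, 429 and 97 without HIF-2α replicate 2, 496 and 96 without HIF-1α replicate 1, and 512 and 116 without control replicate 2. Without control replicate 3, which stood apart for HIF1A and CA9, they were 582 and 147. In each of these settings every one of the called genes that was still tested kept the sign of its log2 fold change. HIF-1α replicate 3 was the highest of the 3 HIF-1α libraries for 381 (59.0%) of the genes higher in HIF-1α cells, beside 36.8% of all genes tested, and control replicate 3 was the highest control library for 385 (59.6%) of them, beside 34.9% of all genes. Without replicate 3 of every pool the counts were 226 and 39, and the part of that replicate in the calls was not tested further.

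**Figure D2:**
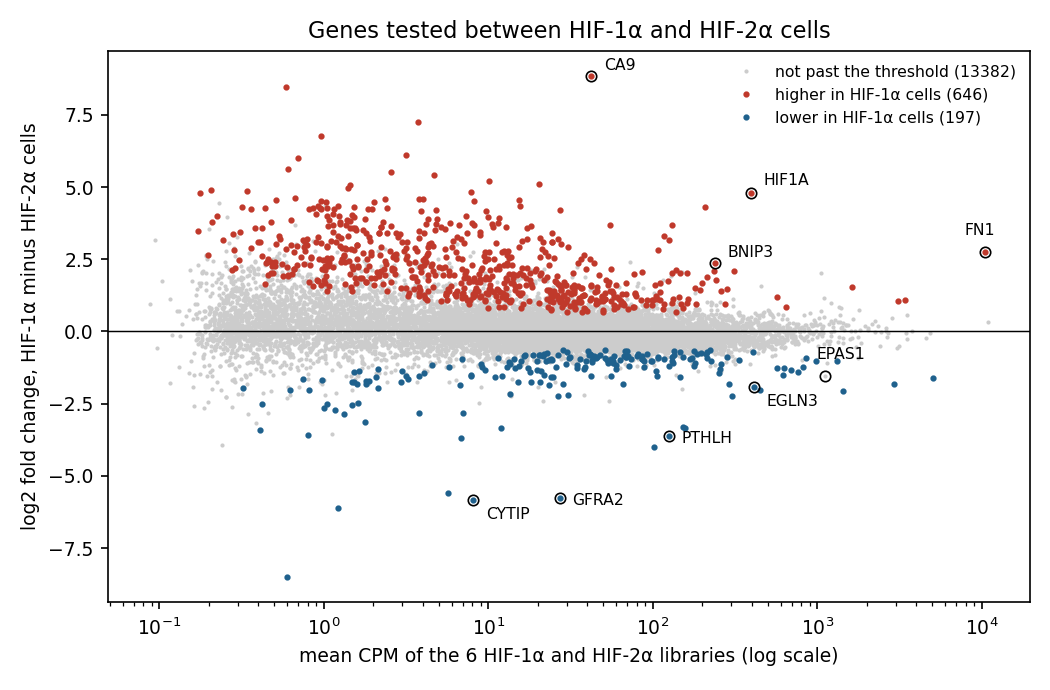
Log2 fold change of HIF-1α minus HIF-2α cells against the mean CPM of the 6 libraries (log axis) for the 14225 genes tested, with the 646 genes called higher in red, the 197 called lower in blue and some of the genes described in the text circled. The genes called higher lie more often at low CPM, and CA9 has the highest log2 fold change at 8.85.

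The control cells place these differences. Their mean lay between those of the HIF pools for 545 (84.4%) of the genes higher in HIF-1α cells and for 146 (74.1%) of those lower, against 32.4% of all genes tested, a position that a wide gap between the pools makes likely. Control replicate 3 was the highest control library for 59.6% of the genes higher in HIF-1α cells, beside 34.9% of all genes, so the control mean of a gene can rest on that library. In the same fit, HIF-1α cells had 769 genes higher than control cells (5.41%) and 363 lower (2.55%), and HIF-2α cells had 16 higher (0.112%) and 22 lower (0.155%). Both of these comparisons use the same 3 control libraries.

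Binding was measured by ChIP-seq in the same pools, with 1 library for each antiserum and pool and without a score for the peaks, so no p-value is given for it. The lists held 5147 HIF-1α peaks of HIF-1α cells, 5283 HIF-2α peaks of HIF-2α cells and 1719 HIF-2α peaks of control cells, each a window of 2500 bp on GRCh37. HIF-1β lists held 5807 peaks of HIF-1α cells and 3431 of HIF-2α cells, and overlap with them is given for the sequences shown. Near a gene means that the midpoint of a peak lay within 10 kb of any of its annotated start sites, including start sites inside the gene. The core of the hypoxia response element, ACGTG or GCGTG on either strand, occurred within the central 300 bp of 65.5% of HIF-1α peaks and 45.7% of HIF-2α peaks. The AP-1 motif, TGACTCA or TGAGTCA on either strand, occurred in 7.75% and 24.7% of them. A match is a description of the letters and not a tested site. Sequences below are read from the plus strand of GRCh37, 5′ to 3′, with these motifs in capitals.

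The genes with the largest differences are described among those called with a mean of at least 5 CPM in the higher pool and the same sign in 3 pairs, 10 in each direction. Among those higher in HIF-1α cells, the largest difference was that of CA9, the cell-surface carbonic anhydrase IX, which acidifies the space outside the cell. CA9 had 8.46, 177 and 68.3 CPM in HIF-1α cells and 0.12, 0.105 and 0.694 CPM in HIF-2α cells, a log2 fold change of 8.85 (SE 1.55, adjusted p = 0.0147). All HIF-1α libraries lay above all HIF-2α libraries. Control cells had 0, 0.171 and 14.3 CPM, so that 1 control library overlapped the HIF-1α cells. The start site of CA9 was 0.005 kb from the midpoint of a HIF-1α peak and had no HIF-2α peak near it. The stretch around the nearest core, chr9:35673897-35673921, lies in an annotated exon of ARHGEF39, a guanine nucleotide exchange factor gene on the opposite strand, and the core reads CACGT on the plus strand. The strand setting of the counting is not given in the sources used here, so reads of the overlap cannot be assigned with certainty, and ARHGEF39 had a log2 fold change of 0.06 (SE 0.30, adjusted p = 0.92). The site is shown because CA9 had the highest log2 fold change. The HIF-1α peak of CA9 overlapped a HIF-1β peak of HIF-1α cells.
CA9, HIF-1α peak: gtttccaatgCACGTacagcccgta

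ADAMTS15 and ADAMTS10 encode secreted metalloproteases. ADAMTS15 had 8.14, 9.95 and 40.9 CPM in HIF-1α cells and 0.265, 0.105 and 1.26 CPM in HIF-2α cells (log2 fold change 5.20, SE 0.43, adjusted p = 0.00108). ADAMTS10 had 0.735, 2.2 and 19.3 CPM against 0.0241, 0 and 0.103 CPM, the latter from 5 counts in all (log2 fold change 7.25, SE 0.59, adjusted p = 0.00108). For both genes the pools did not overlap, and HIF-1α replicate 3 was the highest library. Control cells had 2.59, 6.0 and 12.7 CPM of ADAMTS15, each above every HIF-2α library and the highest above HIF-1α replicates 1 and 2, and HIF-2α cells were lower than control cells (log2 fold change against control -3.88, adjusted p = 0.0135).

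SLCO2A1, a transporter of prostaglandins, had 2.11, 8.07 and 35.0 CPM in HIF-1α cells and 0.0241, 0.314 and 1.59 CPM in HIF-2α cells (log2 fold change 4.82, SE 0.38, adjusted p = 0.00108). In each pair the HIF-1α library was far above its partner, and replicate 3 was the highest library of both pools. RASAL1, an activator of the GTPase activity of Ras, was also highest in replicate 3, at 0.441, 1.27 and 20.4 CPM and 0.0241, 0.14 and 0.437 CPM (log2 fold change 4.59, SE 0.62, adjusted p = 0.00563). GRAMD1B, which moves cholesterol at membrane contacts, had 1.72, 0.911 and 25.1 CPM against 0.12, 0.105 and 0.103 CPM (log2 fold change 5.40, SE 0.84, adjusted p = 0.00892). TSPAN18, a tetraspanin of the cell surface, had 7.48, 0.582 and 7.13 CPM against 0.169, 0.0349 and 0.0771 CPM (log2 fold change 5.52, SE 0.61, adjusted p = 0.00298). For these 4 genes no HIF-2α library reached the lowest HIF-1α library.

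The difference of LBP, the lipopolysaccharide-binding protein, came mostly from HIF-1α replicate 3, with 0.049, 1.52 and 119 CPM in HIF-1α cells and 0.0481, 0.174 and 1.67 CPM in HIF-2α cells (log2 fold change 5.10, SE 1.04, adjusted p = 0.0238). Its pools overlapped, since HIF-1α replicates 1 and 2 lay below the highest HIF-2α library. ISM2, the secreted protein isthmin 2, was highest in HIF-1α replicate 2, at 0.319, 17.3 and 1.23 CPM against 0.0241, 0.0698 and 0.0514 CPM (log2 fold change 6.12, SE 1.04, adjusted p = 0.0128). Of the 10 genes with the largest rise, HIF1A included, ADAMTS10, TSPAN18, GRAMD1B, ADAMTS15 and SLCO2A1 kept their call with each of the 9 libraries left out. CA9 lost it without HIF-2α replicate 2 or 3 (adjusted p = 0.0512 and 0.097), RASAL1 without HIF-2α replicate 3 (0.0596), ISM2 without HIF-1α replicate 2 or HIF-2α replicate 2 or 3 (0.0616, 0.0709 and 0.0596), and LBP without HIF-1α replicate 2 or 3 or HIF-2α replicate 1 or 3 (0.0722, 0.132, 0.0508 and 0.304). Without the replicate number, none of the 10 was called, with adjusted p from 0.0614 to 0.358.

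**Figure D3:**
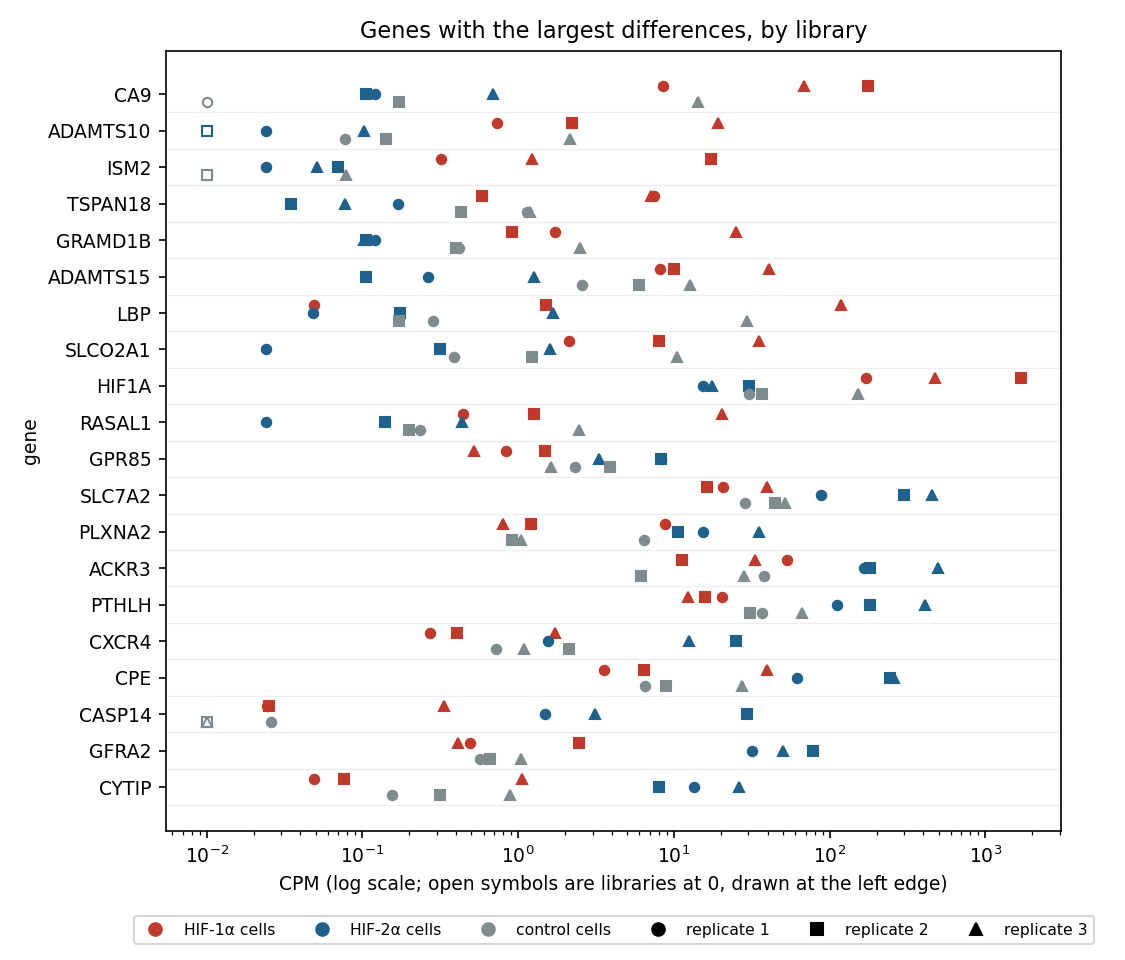
CPM (log axis) in each of the 9 libraries for 20 genes, above the 10 most raised and below the 10 most lowered in HIF-1α against HIF-2α cells, by pool (color) and replicate number (symbol), with libraries at 0 drawn as open symbols at 0.01 CPM. The HIF-1α symbols lie to the right in the upper 10 genes and to the left in the lower 10, and the pools overlap for LBP and CXCR4 alone.

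Of the 10 genes with the largest fall in HIF-1α cells, GFRA2, a co-receptor for the neuronal growth factor neurturin, had 0.49, 2.46 and 0.41 CPM in HIF-1α cells and 31.8, 78.1 and 50.4 CPM in HIF-2α cells (log2 fold change -5.78, SE 0.51, adjusted p = 0.00115). PTHLH, the parathyroid hormone-related protein, had 20.4, 15.9 and 12.4 CPM against 112, 180.1 and 412 CPM (log2 fold change -3.63, SE 0.43, adjusted p = 0.00369). The pools did not overlap for either gene, and both were also called without the replicate number (adjusted p = 0.0462 for each). Control cells had 0.569, 0.654 and 1.04 CPM of GFRA2, close to HIF-1α cells (log2 fold change 0.23, adjusted p = 0.774) and below HIF-2α cells (HIF-2α minus control 6.01, adjusted p = 0.00635).

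CXCR4 and ACKR3 both encode receptors of the chemokine CXCL12, the first signaling through G proteins and the second acting mainly as a scavenger. ACKR3 had 53.3, 11.3 and 33.3 CPM in HIF-1α cells and 167, 183 and 493 CPM in HIF-2α cells (log2 fold change -3.34, SE 0.49, adjusted p = 0.00759). CXCR4 had 0.27, 0.405 and 1.73 CPM against 1.56, 24.8 and 12.4 CPM, and the highest HIF-1α library lay just above the lowest HIF-2α library (log2 fold change -3.67, SE 0.71, adjusted p = 0.0197). CXCR4 lost its call without HIF-1α replicate 1 or 2 or HIF-2α replicate 3 (adjusted p = 0.0508, 0.051 and 0.0905). PLXNA2, a semaphorin receptor, had 8.75, 1.21 and 0.80 CPM against 15.4, 10.6 and 34.9 CPM (log2 fold change -3.33, SE 0.78, adjusted p = 0.0394). Its call was lost in 7 of the 9 fits that left out a library, those without HIF-1α replicate 2 or 3, HIF-2α replicate 2 or 3 or any control library, with adjusted p up to 0.119.

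CPE, carboxypeptidase E, which trims peptide hormones, had 3.58, 6.38 and 39.8 CPM in HIF-1α cells and 61.9, 243 and 257 CPM in HIF-2α cells (log2 fold change -4.01, SE 0.47, adjusted p = 0.00352). The lowest HIF-2α library lay above the highest HIF-1α library, and control cells were at 6.55, 8.93 and 27.4 CPM. Of the 16 genes chosen for description as lower in HIF-1α cells it was the only one with a HIF-2α peak and no HIF-1α peak near, with the midpoint 0.834 kb upstream of a start site. The stretch at chr4:166281417-166281501, between genes, is shown for that reason and holds 2 cores. The HIF-2α peak overlapped a HIF-1β peak of HIF-2α cells.
CPE, HIF-2α peak: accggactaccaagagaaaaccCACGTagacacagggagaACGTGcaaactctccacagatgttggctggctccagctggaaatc

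SLC7A2, a transporter of cationic amino acids, had 20.8, 16.3 and 39.5 CPM in HIF-1α cells and 87.8, 301 and 452 CPM in HIF-2α cells (log2 fold change -3.29, SE 0.38, adjusted p = 0.00348). CYTIP, a cytohesin-binding protein best known from lymphocytes, had 0.049, 0.0759 and 1.06 CPM against 13.4, 8.02 and 26.0 CPM (log2 fold change -5.85, SE 0.59, adjusted p = 0.00241). CASP14, a caspase of skin differentiation, had 0.0245, 0.0253 and 0.335 CPM against 1.49, 29.3 and 3.11 CPM, with HIF-2α replicate 2 far above the rest (log2 fold change -5.60, SE 1.07, adjusted p = 0.0196). CASP14 lost its call without HIF-1α replicate 1 or HIF-2α replicate 1 (adjusted p = 0.0559 and 0.0625). GPR85, an orphan receptor, had 0.833, 1.49 and 0.521 CPM against 8.26, 8.27 and 3.29 CPM (log2 fold change -2.82, SE 0.31, adjusted p = 0.00288). In these 4 genes the libraries of the pools did not overlap. GFRA2, PTHLH, CPE, CYTIP, SLC7A2, GPR85 and ACKR3 kept their call with each of the 9 libraries left out. Of the 10 genes, those other than GFRA2 and PTHLH had adjusted p from 0.0546 to 0.318 without the replicate number.

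Against control cells, with the same control libraries in both comparisons, CYTIP, GFRA2, CPE, ACKR3 and SLC7A2 were higher in HIF-2α cells (log2 fold changes from 2.57 to 6.01, adjusted p from 0.00635 to 0.0372). CASP14 was as well (adjusted p = 0.0404), with no fold given because the control libraries held 1 count in all. Of the 10 genes with the largest fall, GPR85 alone was lower in HIF-1α cells than in control cells (-1.49, adjusted p = 0.0358). Of the 10 genes with the largest rise, HIF1A, CA9, ADAMTS10, TSPAN18, ADAMTS15, SLCO2A1 and RASAL1 were higher in HIF-1α cells than in control cells (log2 fold changes from 1.32 to 5.72, adjusted p from 0.0264 to 0.0493). ISM2 was as well (adjusted p = 0.0308), from 3 counts in all in the control libraries. ADAMTS15 and SLCO2A1 were also lower in HIF-2α cells than in control cells (-3.88 and -2.55, adjusted p = 0.0135 and 0.0372).

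The gene lists that follow are of pathways linked to HIF and to the growth of these cells. Each is described by how many tested members were called, to be read against the 4.54% of all genes called higher and the 1.38% called lower, and by its median log2 fold change, to be read against 0.01 over all genes.

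Of 8 genes of oxygen sensing and HIF turnover, 1 was lower in HIF-1α cells and none higher (median 0.15). It was EGLN3, a HIF prolyl hydroxylase that is itself induced by HIF, with 78.4, 325 and 139 CPM in HIF-1α cells and 356, 912 and 650.4 CPM in HIF-2α cells (log2 fold change -1.94, SE 0.26, adjusted p = 0.00515). In every pair the HIF-2α library was the higher one and the pools did not overlap. The adjusted p was 0.162 without the replicate number, and the call held with each of the 9 libraries left out. HIF-1α and HIF-2α peaks lay at nearly the same place in an intron of EGLN3. Their midpoints were 7.37 and 7.39 kb from a start site inside the gene, far from its annotated 5′ end. The central 300 bp held 1 AP-1 motif and no core of the hypoxia response element. The stretch around that motif, chr14:34407994-34408080, is shown because both subunits had a peak here while the gene was higher in HIF-2α cells. Each of these peaks overlapped HIF-1β peaks of HIF-1α cells and of HIF-2α cells.
EGLN3, HIF-1α and HIF-2α peaks: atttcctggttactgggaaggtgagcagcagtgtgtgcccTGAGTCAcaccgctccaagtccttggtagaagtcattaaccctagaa

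Glucose uptake and glycolysis, the best known target pathway of HIF-1α, had 1 of 22 members higher and none lower (median 0.26, with 17 of 22 positive). Only 3 of 22 were higher in 3 of 3 pairs, and 2 were lower in 3 of 3. The summed level was 14800 to 34940 CPM in HIF-1α libraries and 17670 to 19210 CPM in HIF-2α libraries, so the pools overlapped. The member called was PFKFB4, which makes the activator of phosphofructokinase, at 32.4, 184 and 34.9 CPM in HIF-1α cells and 18.1, 29.4 and 11.4 CPM in HIF-2α cells (log2 fold change 1.78, SE 0.35, adjusted p = 0.0224). HIF-1α replicate 2 stood far above the others, and the call was lost without HIF-1α replicate 2 or 3 or any HIF-2α library (adjusted p from 0.0502 to 0.101). PGK1, phosphoglycerate kinase, showed a similar pattern at 742, 3104 and 906 CPM against 663, 588 and 566 CPM and was not called (log2 fold change 1.14, SE 0.41, adjusted p = 0.134). SLC2A1, the glucose transporter GLUT1, had the lowest value of the list, with 1062, 1505 and 1095 CPM in HIF-1α cells and 1591, 2959 and 2403 CPM in HIF-2α cells (log2 fold change -0.92, SE 0.25, adjusted p = 0.065). LDHA, lactate dehydrogenase A, had a log2 fold change of 0.06 (SE 0.32, adjusted p = 0.926), and HK2, hexokinase 2, one of 0.24 (SE 0.30, adjusted p = 0.64). DESeq2 with the replicate number called 2 members of the list higher and 1 lower.

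Of 9 genes of mitophagy and mitochondrial switching, 1 was higher (median 0.44). BNIP3, a mitochondrial receptor for mitophagy, had 202, 818 and 203 CPM in HIF-1α cells and 85.2, 56.8 and 61.7 CPM in HIF-2α cells (log2 fold change 2.36, SE 0.50, adjusted p = 0.0273). The pools did not overlap and HIF-1α replicate 2 was the highest library. The call was lost without HIF-2α replicate 2 or 3 (adjusted p = 0.0836 and 0.122). Its relative BNIP3L had a log2 fold change of 0.56 (SE 0.27, adjusted p = 0.235), higher in 3 of 3 pairs.

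Of 6 genes of pH regulation, 2 were higher and none lower (median 0.22). Besides CA9 this was SLC4A7, a sodium bicarbonate cotransporter, with 89.2, 119 and 137 CPM in HIF-1α cells and 47.5, 81.3 and 38.7 CPM in HIF-2α cells (log2 fold change 1.11, SE 0.25, adjusted p = 0.036). The pools did not overlap, but the call was lost in 7 of the 9 fits that left out a library, all but those without HIF-2α replicate 2 or control replicate 1 (adjusted p up to 0.225). CA12, the other cell-surface carbonic anhydrase of the list, had 464, 829 and 368 CPM against 726, 1366 and 1072 CPM and was not called (log2 fold change -0.98, SE 0.36, adjusted p = 0.142).

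Of 14 growth genes linked to HIF-2α, 4 were lower in HIF-1α cells and none higher (median -0.52). CXCR4, TGFA and PLIN2 were among them, and the count of members lower was 2 without HIF-1α replicate 1, HIF-1α replicate 2 or HIF-2α replicate 3. TGFA, a ligand of the EGF receptor, had 596, 459 and 617 CPM in HIF-1α cells and 1528, 2567 and 2858 CPM in HIF-2α cells (log2 fold change -2.06, SE 0.28, adjusted p = 0.00571). PLIN2, which coats lipid droplets, had 455, 574 and 417 CPM against 732, 1502 and 1229 CPM (log2 fold change -1.25, SE 0.26, adjusted p = 0.0274). In TGFA and PLIN2 every HIF-2α library lay above every HIF-1α library. TGFA kept its call with each of the 9 libraries left out. PLIN2 lost it without any HIF-1α library or without HIF-2α replicate 2 or 3 (adjusted p from 0.072 to 0.141), and without the replicate number the adjusted p was 0.0541 for TGFA and 0.11 for PLIN2.

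The other 10 members of that list did not differ past the threshold. CCND1, cyclin D1, had a log2 fold change of -0.35 (SE 0.27, adjusted p = 0.443), and VEGFA, the main angiogenic factor, one of 0.11 (SE 0.40, adjusted p = 0.889). LOX, lysyl oxidase, had the highest value, with 91.5, 485 and 209 CPM in HIF-1α cells and 90.3, 115 and 96.3 CPM in HIF-2α cells (log2 fold change 1.35, SE 0.69, adjusted p = 0.262).

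Of 13 angiogenic factors and receptors, 1 was higher (median 0.12). NRP1, neuropilin 1, a co-receptor of VEGF and of semaphorins, had 276, 327 and 544 CPM in HIF-1α cells and 69.7, 98.3 and 89.9 CPM in HIF-2α cells (log2 fold change 2.10, SE 0.20, adjusted p = 0.00209). The lowest HIF-1α library was well above the highest HIF-2α library, and control cells lay between at 155, 169.6 and 224 CPM. The call held with each of the 9 libraries left out, and the adjusted p was 0.0527 without the replicate number.

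Of 9 AP-1 subunits tested, 1 was higher (median 0.12). FOS had 10.6, 103 and 10.8 CPM in HIF-1α cells, 2.41, 46.2 and 3.7 CPM in HIF-2α cells and 5.33, 102 and 3.44 CPM in control cells (log2 fold change 1.62, SE 0.31, adjusted p = 0.0196). FOS is an immediate early gene that cells switch on within minutes of a stimulus. Replicate 2 was far above replicates 1 and 3 in every pool, so the pools overlapped although the HIF-1α library was the higher one in each pair (adjusted p = 0.746 without the replicate number). The call was lost without HIF-1α replicate 1 or 3 or any HIF-2α library (adjusted p from 0.0594 to 0.0849). JUNB, its partner, had a log2 fold change of 0.52 (SE 0.30, adjusted p = 0.314).

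Of 12 collagens tested, 4 were higher and 1 lower (median 0.92), and their summed level was 3412 to 5258 CPM in HIF-1α libraries against 1498 to 2520 CPM in HIF-2α libraries. The count of those higher was 2 without HIF-1α replicate 3, HIF-2α replicate 1 or HIF-2α replicate 3. COL6A1 and COL6A2 encode chains of collagen VI, which forms beaded filaments around cells. COL6A1 had 211, 136 and 328 CPM in HIF-1α cells and 47.3, 33.1 and 73.9 CPM in HIF-2α cells (log2 fold change 2.12, SE 0.18, adjusted p = 0.00115). COL6A2 had 369, 161 and 616 CPM against 85.9, 68.8 and 155 CPM (log2 fold change 1.78, SE 0.22, adjusted p = 0.00406). In both genes replicate 2 was the lowest library of each pool and the pools did not overlap. COL6A3, another chain of collagen VI, made up the largest part of the summed level in each HIF-1α library and was not called. It had 1877, 1282 and 1700 CPM in HIF-1α cells and 356, 1028 and 118 CPM in HIF-2α cells (log2 fold change 2.03, SE 0.62, adjusted p = 0.0924). COL7A1, the anchoring fibril collagen of basement membranes, had 869, 609 and 909 CPM against 418, 282 and 348 CPM (log2 fold change 1.20, SE 0.23, adjusted p = 0.0212). COL5A1, a chain of collagen V, was near the limit of detection in HIF-2α cells, with 0.539, 0.354 and 5.29 CPM against 0.0241, 0.174 and 0.103 CPM (log2 fold change 3.86, SE 0.92, adjusted p = 0.0436). The member that was lower was COL5A2, another chain of collagen V, at 3.11, 3.49 and 2.01 CPM against 10.5, 14.6 and 6.96 CPM (log2 fold change -1.87, SE 0.24, adjusted p = 0.00458).

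COL6A1, COL6A2 and COL5A2 kept their calls with each of the 9 libraries left out, and COL7A1 lost its call without HIF-1α replicate 3 or any HIF-2α library (adjusted p from 0.0713 to 0.101). COL5A1 lost it without HIF-1α replicate 1 or 3, HIF-2α replicate 1 or 3 or control replicate 2 (adjusted p from 0.0767 to 0.304). Without the replicate number the adjusted p of the 5 genes lay between 0.0614 and 0.136. COL6A1 had a HIF-1α peak 7.72 kb upstream of a start site and no HIF-2α peak near, and the stretch at chr21:47393989-47394073, between genes, holds its core. This peak overlapped no HIF-1β peak of HIF-1α cells.
COL6A1, HIF-1α peak: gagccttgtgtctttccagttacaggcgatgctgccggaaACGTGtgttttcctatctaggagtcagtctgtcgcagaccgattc

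None of 10 collagen-modifying enzymes was called (median 0.33). At an unadjusted p under 0.05 there were 3 higher and 1 lower, and DESeq2 with the replicate number called 2 higher. P4HA1, a prolyl hydroxylase of collagen and a well known HIF target, had a log2 fold change of 0.02 (SE 0.23, adjusted p = 0.976).

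Of 9 genes of epithelial and mesenchymal identity, 2 were higher and none lower (median 0.75). FN1, fibronectin, had 12329, 24413 and 17805 CPM in HIF-1α cells, 1505, 2098 and 4611 CPM in HIF-2α cells and 4196, 5985 and 2604 CPM in control cells (log2 fold change 2.75, SE 0.45, adjusted p = 0.0111). Every HIF-1α library lay above every library of the other pools. CDH1, E-cadherin, was at 0.0245, 0.456 and 7.52 CPM against 0, 0.0698 and 1.05 CPM, so that replicate 3 held nearly all of its counts in each of these pools (log2 fold change 2.83, SE 0.47, adjusted p = 0.0123). FN1 lost its call without HIF-2α replicate 1 (adjusted p = 0.0515), and CDH1 without HIF-1α replicate 2 or 3 or HIF-2α replicate 3 (adjusted p = 0.0558, 0.082 and 0.21). The adjusted p without the replicate number was 0.065 for FN1 and 0.555 for CDH1. VIM, vimentin, had a log2 fold change of -0.06 (SE 0.21, adjusted p = 0.883). FN1, on the minus strand with its 5′ end at chr2:216300796, had a HIF-1α peak with its midpoint 0.146 kb from a start site. Its HIF-2α peak, at chr2:216274471-216276970, lay 1.05 kb from a start site inside the gene. The HIF-2α peak held 2 AP-1 motifs and no core, at chr2:216275706-216275792 in an intron. Neither peak overlapped a HIF-1β peak of HIF-1α or HIF-2α cells.
FN1, HIF-2α peak: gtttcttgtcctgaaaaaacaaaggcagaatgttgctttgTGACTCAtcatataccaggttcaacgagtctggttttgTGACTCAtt

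Of 8 renal carcinoma markers, 1 was higher (median 0.03). CDH6, a cadherin of the kidney tubule, had 30.4, 339 and 413 CPM in HIF-1α cells and 14.0, 32.8 and 136 CPM in HIF-2α cells, with overlapping pools (log2 fold change 2.04, SE 0.38, adjusted p = 0.0172, and 0.436 without the replicate number). The call was lost without HIF-2α replicate 3 (adjusted p = 0.0779).

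None of 23 cell cycle genes was called, while 22 of 23 had a negative log2 fold change (median -0.51) and 16 of 23 were lower in HIF-1α cells in 3 of 3 pairs. At an unadjusted p under 0.05 there were 2 lower and none higher, and DESeq2 with the replicate number called 1 lower. The main test called 2 lower without control replicate 1 and 1 lower without control replicate 3. MKI67, a marker of dividing cells, had 141, 298 and 133 CPM in HIF-1α cells and 218, 424 and 237 CPM in HIF-2α cells (log2 fold change -0.66, SE 0.26, adjusted p = 0.167). These genes are co-regulated, so their shared sign is not independent evidence from each. The summed level of the list ranged from 2018 to 3192 CPM in HIF-1α libraries, 3104 to 3886 CPM in HIF-2α libraries and 1521 to 5124 CPM in control libraries, so the control libraries spanned both pools.

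Of 9 genes of the G1 cyclins, their kinases and inhibitors, 1 was higher (median -0.25). CDKN1C, an inhibitor of cyclin-dependent kinases, had 13.2, 6.2 and 45.4 CPM in HIF-1α cells and 1.54, 0.977 and 1.1 CPM in HIF-2α cells (log2 fold change 3.74, SE 0.49, adjusted p = 0.00502). The pools did not overlap, control cells were at 4.14, 2.33 and 6.31 CPM, and the call held with each of the 9 libraries left out (adjusted p = 0.0614 without the replicate number). A HIF-1α peak and no HIF-2α peak was near CDKN1C, with its midpoint 6.64 kb upstream of a start site in an intron of SLC22A18AS. The stretch at chr11:2913674-2913758 is shown as a HIF-1α peak near a gene higher in HIF-1α cells, and its CACGTG holds the core on both strands. This HIF-1α peak overlapped no HIF-1β peak of HIF-1α cells.
CDKN1C, HIF-1α peak: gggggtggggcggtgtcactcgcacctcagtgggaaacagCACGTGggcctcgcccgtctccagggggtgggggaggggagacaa

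Of 9 genes of the IGF axis, 1 was higher and 1 lower (median 0.09). IGFBP6, which binds and restrains IGF, had 48.1, 30.0 and 55.9 CPM in HIF-1α cells and 14.9, 11.0 and 17.3 CPM in HIF-2α cells (log2 fold change 1.61, SE 0.20, adjusted p = 0.00404). Control cells had 62.1, 26.6 and 47.7 CPM, close to HIF-1α cells (log2 fold change 0.00, adjusted p = 0.998), and HIF-2α cells were below them (HIF-2α minus control -1.61, adjusted p = 0.0191). IRS2, an adaptor of the insulin and IGF receptors, had 358, 419 and 320.0 CPM against 705, 1005 and 935 CPM (log2 fold change -1.28, SE 0.22, adjusted p = 0.0134). Neither gene's pools overlapped. IRS2 lost its call without HIF-1α replicate 2 or HIF-2α replicate 3 (adjusted p = 0.0527 and 0.0694), and without the replicate number the adjusted p was 0.0872 for IGFBP6 and 0.0808 for IRS2. IGFBP6 had peaks of both subunits near its start site, and the stretch at chr12:53491836-53491910 in its intron holds a CACGTG, shown beside that of CDKN1C because here the gene has a HIF-2α peak as well. The HIF-1α peak overlapped no HIF-1β peak of HIF-1α cells, and the HIF-2α peak none of HIF-2α cells.
IGFBP6, HIF-1α peak: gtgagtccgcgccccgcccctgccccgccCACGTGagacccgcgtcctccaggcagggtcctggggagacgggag

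Of 10 genes of BMP signaling and the ID family, 1 was higher and 1 lower (median -0.39). BMP4, a secreted growth factor, had 1.2, 1.16 and 6.39 CPM in HIF-1α cells and 0.169, 0.244 and 0.103 CPM in HIF-2α cells (log2 fold change 3.60, SE 0.66, adjusted p = 0.0172). ID2, an inhibitor of differentiation factors, had 57.1, 63.9 and 49.6 CPM against 115, 84.2 and 114 CPM, a smaller difference without overlap (log2 fold change -0.86, SE 0.20, adjusted p = 0.0417). BMP4 lost its call without HIF-2α replicate 1 (adjusted p = 0.0525). ID2 lost it in 6 of the 9 fits that left out a library, all but those without HIF-1α replicate 2 or control replicate 1 or 3 (adjusted p up to 0.156). Without the replicate number the adjusted p was 0.101 for BMP4 and 0.116 for ID2.

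Of 11 genes of the amino acid starvation response, 1 was higher (median 0.06). It was VLDLR, the receptor of very low density lipoprotein, which HIF also induces, with 96.3, 184 and 157 CPM in HIF-1α cells and 61.8, 77.1 and 60.2 CPM in HIF-2α cells (log2 fold change 1.12, SE 0.26, adjusted p = 0.0356). The call was lost in 6 of the 9 fits that left out a library, all but those without HIF-1α replicate 1 or control replicate 1 or 2 (adjusted p up to 0.196), and without the replicate number (adjusted p = 0.111). Of 11 chemokine, cytokine and receptor genes the 2 that were lower were CXCR4 and ACKR3 and none was higher (median 0.07).

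None of 14 interferon response genes was called, while 13 of 14 had a negative log2 fold change (median -1.33) and 11 of 14 were lower in HIF-1α cells in 3 of 3 pairs. At an unadjusted p under 0.05 there were 4 lower and none higher, and DESeq2 with the replicate number called 1 lower. The main test called 1 lower without HIF-2α replicate 1 or control replicate 1. MX1, an antiviral GTPase, had 5.51, 7.9 and 3.18 CPM in HIF-1α cells, 7.51, 35.3 and 23.4 CPM in HIF-2α cells and 37.1, 4.44 and 2.74 CPM in control cells (log2 fold change -2.25, SE 0.88, adjusted p = 0.163). Control replicate 1 was above every library of the HIF pools, while control replicates 2 and 3 were at the level of the HIF-1α cells or below it.

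None of 13 JmjC histone demethylases was called, with 12 of 13 positive (median 0.32). At an unadjusted p under 0.05 there were 5 higher and none lower, and DESeq2 with the replicate number called 3 higher. The main test called 1 higher without HIF-1α replicate 1 and 2 higher without control replicate 1. KDM3A, a HIF-induced member that demethylates histone H3, had 67.4, 101 and 63.9 CPM in HIF-1α cells and 43.9, 69.1 and 39.6 CPM in HIF-2α cells (log2 fold change 0.62, SE 0.19, adjusted p = 0.0955). None of 11 sterol and fatty acid synthesis genes (median -0.07) and none of 9 housekeeping genes (median -0.19) was called or had an unadjusted p under 0.05, and DESeq2 called none of either. None of 5 replication-dependent histone genes was called (median 0.70), with 1 higher at an unadjusted p under 0.05 and 1 higher by DESeq2, in libraries selected for polyadenylated RNA.

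**Figure D4:**
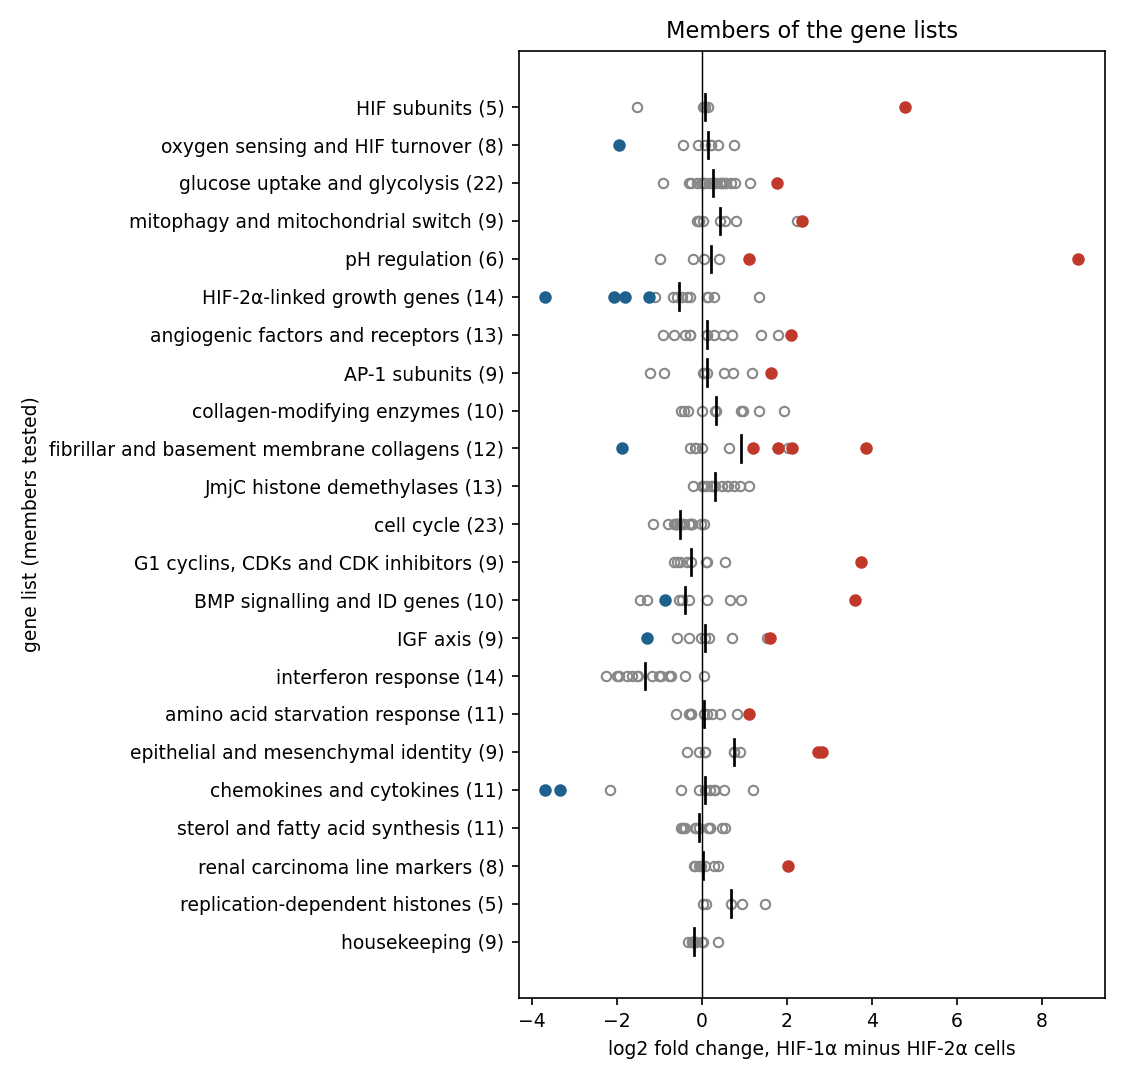
Log2 fold change of HIF-1α minus HIF-2α cells for each tested member of the gene lists, with members called higher in red, called lower in blue and the rest as open circles, and the median of each list as a bar. Most lists hold 2 or fewer called members, and the called members of the growth genes linked to HIF-2α all lie to the left of 0.

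Peaks near the genes were counted in the lists of both subunits. Of 13769 tested genes placed on the annotation, 34.6% had a HIF-1α peak and 14.5% a HIF-2α peak within 10 kb of a start site. For the genes higher in HIF-1α cells the HIF-1α share was 34.4% (95% Wilson interval 30.8 to 38.2%, 219 of 637 genes), close to that of all genes, and the HIF-2α share was 18.1% (15.3 to 21.2%, 115 genes). For the genes lower in HIF-1α cells the HIF-1α share was 26.8% (21.1 to 33.4%, 52 of 194 genes) and the HIF-2α share 28.4% (22.5 to 35.1%, 55 genes). HIF-2α peaks of the control cells were near 15.5% of the genes lower in HIF-1α cells (11.1 to 21.2%), 7.38% of those higher (5.59 to 9.67%) and 5.33% of all genes. The intervals cover counting error only.

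Genes with a HIF-1α peak and no HIF-2α peak near made up 24.3% of all genes, 22.6% of the genes higher in HIF-1α cells (144 genes) and 10.3% of those lower (20 genes). Genes with a HIF-2α peak and no HIF-1α peak made up 4.24% of all genes, 6.28% of those higher (40 genes) and 11.9% of those lower (23 genes). Neither peak was near 61.2% of all genes, 59.3% of those higher and 61.3% of those lower. Genes near peaks were also covered by more counts, with a median of 58.4 CPM for genes near both, 40.7 CPM with HIF-1α alone, 35.6 CPM with HIF-2α alone and 18.0 CPM with neither, and the part of this in the shares was not tested.

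Among the 25 genes higher in HIF-1α cells that were chosen by size or by adjusted p within a list, which leaves out COL5A1, 13 had a HIF-1α peak near, 9 a HIF-2α peak and 10 neither. HIF1A, CA9, RASAL1, FOS, COL6A1 and CDKN1C had a HIF-1α peak alone, and TSPAN18 and SLCO2A1 a HIF-2α peak alone. HIF1A is the introduced gene and its counts include the viral cDNA, so the peak at its start site is not read against its level. The HIF-2α peaks of TSPAN18, SLCO2A1 and, below, EGLN3 and TGFA lay near start sites inside these genes and far from their 5′ ends, as did the HIF-1α peak of EGLN3. Among the 16 chosen by the same rule as lower, 4 had peaks of both subunits (EGLN3, TGFA and ID2 among them), CPE a HIF-2α peak alone and 11 neither, among them GFRA2, PTHLH, CXCR4 and ACKR3. The core was present in the central 300 bp of 63.6% of 217 HIF-1α peaks near genes higher in HIF-1α cells and of 53.7% of 54 HIF-2α peaks near genes lower in HIF-1α cells (interval 40.6 to 66.3%). AP-1 was present in 8.76% (interval 5.68 to 13.3%) and 7.41% (interval 2.92 to 17.6%, 4 peaks) of these peaks. Near all tested genes, 68.2% of 3783 HIF-1α peaks held the core and 4.86% AP-1, and 55.9% of 1698 HIF-2α peaks held the core and 17.9% AP-1. HIF-2α peaks near genes higher in HIF-1α cells held AP-1 in 22.8% of 114 (interval 16.1 to 31.3%).

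**Figure D5:**
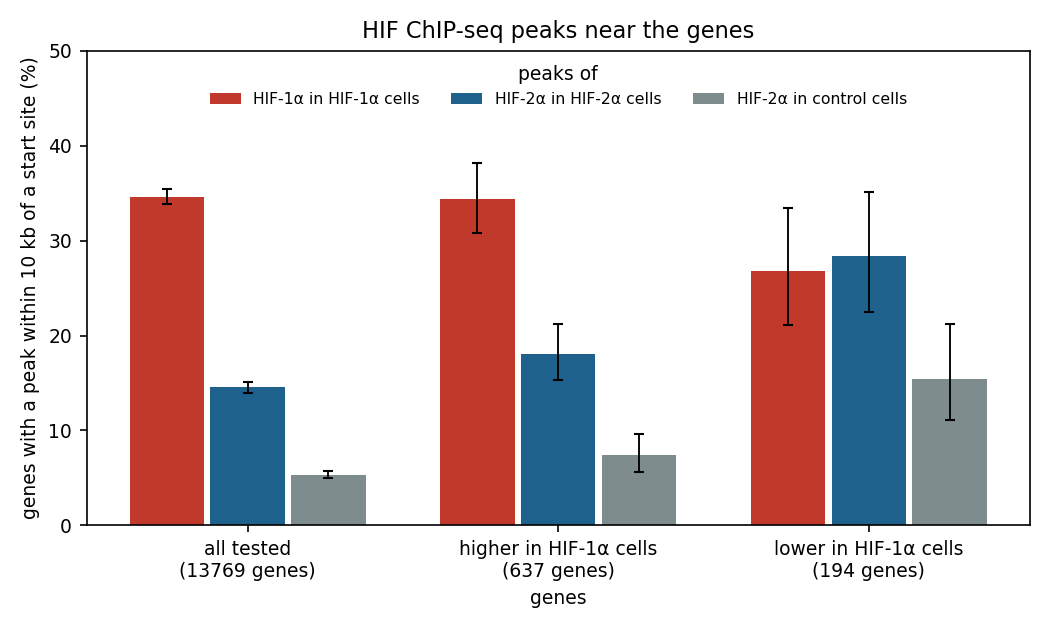
Share of genes (%) with a peak within 10 kb of an annotated start site, for all genes placed and for those called higher or lower in HIF-1α cells, by peak list, with 95% Wilson intervals for counting error. HIF-2α bars are 14.5%, 18.1% and 28.4% from left to right, and HIF-1α bars 34.6%, 34.4% and 26.8%.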

How the data were processed

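RNA was prepared in triplicate from 3 pools of infected 786-O cells, and polyadenylated RNA was sequenced from directional libraries. Per the labels, the submitters' processing notes and the study's methods, the authors trimmed reads with Trim Galore 0.3.3, aligned them to GRCh37 with TopHat2 2.0.8b, kept uniquely mapping reads and deposited whole-number counts per UCSC gene from HTSeq 0.5.4p3. Peaks were called by the authors on single ChIP-seq libraries aligned with BWA 0.7.5a-r405 and were deposited as intervals without a signal or score.

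Counts were fitted with edgeR 4.0.16 (R 4.3.3): TMM scaling, filterByExpr, a quasi-likelihood model of all 9 libraries with cell pool and replicate number, the contrast of HIF-1α minus HIF-2α cells, and Benjamini-Hochberg adjustment over 14225 genes at 0.05. CPM uses the TMM-scaled library size. The deviations of same-numbered libraries from their pool's mean correlated at r = 0.377 to 0.650 in 9 of 9 pairs, against -0.451 to 0.0205 for 18 pairs of different numbers, so the numbers were taken to pair the libraries. Where the number comes from (a day, a batch) is not given in the sources used here. Pairs of replicates differed by more than sampling noise, so none was taken as a repeat deposit. The code was tested on simulated counts.

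Named genes were HIF1A, EPAS1, ARNT and VHL, the 10 with the largest change in each direction among called genes with a mean of at least 5 CPM in the higher pool and the same sign in 3 pairs, and up to 3 called members of each gene list in each direction by adjusted p. PLIN2, COL5A1 and the list members that were not called were named after their values were seen, to complete the counts or for their role. The result for 1 gene that the rule chose is not reported here. The members of the comparison and the lists were chosen with earlier results of these data known. Start sites were those of GENCODE v44 lifted to GRCh37: 12877 symbols matched directly, 892 through a unique RefSeq synonym and 456 not at all. Alternatives were DESeq2 1.42.0, other scalings and filters, the fit without the replicate number, each library left out, and peak windows of 5 and 50 kb.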

Additional observations from a re-analysis of the deposited data

How the results depend on the processing

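The counts of 646 genes higher and 197 lower depended on the fit. Leaving out single libraries or 1 replicate of every pool gave 143 to 659 higher and 24 to 231 lower. The 6 HIF-1α and HIF-2α libraries alone gave 416 and 100, of which 377 and 91 were among the 646 and 197, and DESeq2 with the replicate number gave 1162 and 615, among them 639 and 195 of these. Other size factors, a robust prior, no filter and a filter at 1 CPM kept both counts within 1.5 times. With libraries left out, the log2 fold change ranged from 3.66 to 5.44 for HIF1A (4.43, adjusted p = 0.0581, without HIF-2α replicate 3), from -2.01 to -0.86 for EPAS1 and from -0.16 to 0.31 for ARNT. EPAS1 passed the threshold in DESeq2 with and without the replicate number (log2 fold change -1.54 and -1.69, adjusted p = 0.00286 and 0.0401), with no filter (-1.55, adjusted p = 0.0358) and without HIF-2α replicate 1 or control replicate 1 (-2.01 and -1.45, adjusted p = 0.0406 and 0.0436), and the cause was not tested. ARNT changed sign without HIF-1α replicate 3 (-0.16) and without replicate 3 of every pool (-0.12). The share of genes higher in HIF-1α cells with a HIF-1α peak was 30.6% within 5 kb and 47.2% within 50 kb, against 31.6% and 50.6% of all genes. With a HIF-2α peak it was 13.3% and 34.4%, against 11.8% and 28.4% of all genes. For genes lower in HIF-1α cells both shares were 41.8% within 50 kb, below that of all genes for HIF-1α peaks and above it for HIF-2α peaks, and the HIF-2α share was 20.8% for those called by DESeq2. These counts rest on more genes within a wider window and on other lists of called genes.

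Replicate numbers were a term of the fit, since libraries of the same number deviated together. With no replicate block edgeR called 4 genes higher and 3 lower, and HIF1A was not called (log2 fold change 5.20, adjusted p = 0.0614). Of the 41 called genes that the rule named, 39 lost their call and 2, GFRA2 and PTHLH, kept it. With so few genes the shares with a peak became 25.0% (HIF-1α) and 0% (HIF-2α) of 4 genes higher, and 0% (HIF-1α) of 3 lower. The fit had 4 residual degrees of freedom, and 252 of the genes higher and 31 of those lower had under 1 CPM in the lower pool.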

Other observations

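The genes in this paragraph and the next lie outside the gene lists and were chosen after their values were seen, so they are given as values with no theme drawn from them. Of genes higher in HIF-1α cells, VCAM1, an adhesion molecule for leukocytes, had 81.2, 231 and 885 CPM in HIF-1α cells and 7.29, 6.25 and 44.2 CPM in HIF-2α cells (log2 fold change 4.33, SE 0.33, adjusted p = 0.00108 in edgeR's test, as below). NID2, a nidogen of basement membranes, had 87.7, 132 and 360.3 CPM against 15.4, 23.5 and 31.0 CPM (log2 fold change 2.83, SE 0.25, adjusted p = 0.00115). FAM20C, a kinase of secreted proteins, had 50.1, 129.6 and 459 CPM against 3.68, 18.4 and 40.1 CPM (log2 fold change 3.32, SE 0.29, adjusted p = 0.00115). PTGIS, prostacyclin synthase, had 21.6, 11.4 and 31.9 CPM against 1.16, 0.663 and 2.67 CPM (log2 fold change 3.92, SE 0.29, adjusted p = 0.00108), and PTGER2, a receptor of prostaglandin E, had 6.42, 22.8 and 34.7 CPM against 1.56, 2.55 and 4.32 CPM (log2 fold change 2.75, SE 0.28, adjusted p = 0.00261). WNT5A and WNT7B, secreted WNT ligands, had log2 fold changes of 1.95 (SE 0.27, adjusted p = 0.00571) and 2.63 (SE 0.32, adjusted p = 0.00369). KCNN4, a calcium-activated potassium channel, was 1 of the 4 genes also called higher without the replicate number, with 14.3, 9.37 and 13.1 CPM against 1.32, 1.71 and 0.925 CPM (log2 fold change 3.20, SE 0.35, adjusted p = 0.00282).

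Among genes lower in HIF-1α cells, SCARB1, a receptor of high density lipoprotein, had 212, 206 and 122 CPM in HIF-1α cells and 493, 990.5 and 675 CPM in HIF-2α cells (log2 fold change -2.03, SE 0.31, adjusted p = 0.00836). F3, the tissue factor that starts coagulation, had 74.2, 225 and 55.0 CPM against 397, 506 and 558 CPM (log2 fold change -2.24, SE 0.39, adjusted p = 0.0139). SEMA6A, a semaphorin, had 18.0, 73.7 and 77.0 CPM against 62.9, 197 and 208 CPM (log2 fold change -1.56, SE 0.19, adjusted p = 0.00369). ATP1B1, a subunit of the sodium pump, had 132, 226 and 582 CPM against 291, 947 and 1523 CPM (log2 fold change -1.52, SE 0.22, adjusted p = 0.00685). SCARB1 lost its call without HIF-2α replicate 3 (adjusted p = 0.0536), and F3 without HIF-1α replicate 1 or HIF-2α replicate 3 (adjusted p = 0.0507 and 0.0596). In these 4 genes every HIF-2α library was above its HIF-1α partner. Without the replicate number their adjusted p lay at 0.0614, 0.101, 0.393 and 0.381.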
